A study of Mus musculus with 30 samples.

Results

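The genes described here are *Tnfrsf19*, *Edar*, *Vax2*, *Tmem132c*, *Tmc6*, *Cntnap3*, *Ctse* and *Scrn1*, 8 of the 50833 genes counted in mouse forelimb buds. They were chosen by their large difference in read counts between C59 and DMSO at 6 h or 12 h, so the values at those times are a description and carry no test. Tests were made only at 1 h, 18 h and 24 h, on the change from 18 h to 24 h, and on development within a treatment.

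Polyadenylated RNA was sequenced from the forelimb buds of wild-type Swiss Albino embryos. The pregnant females had been injected once at E10.5, with Wnt-C59 (C59) or with DMSO as the control. C59 was diluted from a DMSO stock in PBS with methylcellulose, Tween-20 and DMSO, and the control was DMSO in PBS, so the vehicles differed. Forelimb buds were collected 1, 6, 12, 18 and 24 h later, with 3 libraries for each treatment and time, 30 in all. Each library came from a pair of forelimb buds, and levels are given as CPM, counts scaled to the normalised library size. Since these are whole limb buds, fewer cells of a type and less RNA per cell cannot be told apart.

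WNT proteins carry messages between neighbouring cells, and porcupine, the target of C59, attaches the lipid that they need to leave the cell. In cells that receive them, β-catenin is stabilised and acts with TCF/LEF factors at target genes, among them *Axin2*, a feedback inhibitor of the pathway. In the limb bud, WNT signals from ectoderm and mesenchyme maintain the apical ectodermal ridge, the rim of ectoderm that secretes FGFs, and hold back cartilage formation beneath the ectoderm.

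The libraries held 18188636 to 38974885 counts. *Tbx5*, the forelimb selector gene, lay between 188 and 330 CPM in all libraries. *Axin2* was at 25.7% of its DMSO level 6 h after C59 and at 36.5% at 12 h, with adjusted p = 7.55e-11 and 1.40e-07, and was not called at 18 h or 24 h. Counts of replicates differed by 3.49 to 46.6 chi-square per degree of freedom over 30 pairs. The values of 22.9 and above all came from pairs that held DMSO 1 h, 6 h or 18 h replicate 1, C59 18 h replicate 3 or C59 24 h replicate 2, and the other pairs reached at most 12.8.

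Promoter sequence was available in the RefSeq tables (GRCm38.p6) for 6 of the 8 genes, and 3 stretches are shown because their genes were lower together in C59 at 6 h and 12 h, *Edar* and *Tnfrsf19* with a match and *Tmem132c* without one. Each holds 300 bases around an annotated start, most of them before it, 5′ to 3′ on the gene's strand. Capitals mark the TCF/LEF-type letters CTTTGAT, or ATCAAAG where the match lies on the opposite strand, and CTTTGAA was searched on both strands as well. CTTTGAT was present in 3.73% of 32851 promoters of the same length, CTTTGAA in 5.14%, and either in 8.65%. The *Edar* window lies at chr10:58675647-58675946 on the minus strand, the window of the second *Tnfrsf19* start at chr14:61037938-61038237 on the minus strand, and the *Tmem132c* window at chr5:127241576-127241875 on the plus strand.
Edar: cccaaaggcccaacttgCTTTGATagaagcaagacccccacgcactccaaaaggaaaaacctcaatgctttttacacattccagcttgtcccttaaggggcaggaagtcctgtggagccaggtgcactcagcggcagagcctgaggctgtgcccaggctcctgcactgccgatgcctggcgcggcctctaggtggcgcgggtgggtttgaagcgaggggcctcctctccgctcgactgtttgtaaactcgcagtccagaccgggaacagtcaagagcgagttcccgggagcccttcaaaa
Tnfrsf19, second start: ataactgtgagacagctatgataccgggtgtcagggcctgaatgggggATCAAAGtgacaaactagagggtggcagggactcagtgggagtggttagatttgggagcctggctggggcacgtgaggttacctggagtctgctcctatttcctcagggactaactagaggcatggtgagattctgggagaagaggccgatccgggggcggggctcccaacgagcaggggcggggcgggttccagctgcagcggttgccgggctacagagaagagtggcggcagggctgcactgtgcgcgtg
Tmem132c: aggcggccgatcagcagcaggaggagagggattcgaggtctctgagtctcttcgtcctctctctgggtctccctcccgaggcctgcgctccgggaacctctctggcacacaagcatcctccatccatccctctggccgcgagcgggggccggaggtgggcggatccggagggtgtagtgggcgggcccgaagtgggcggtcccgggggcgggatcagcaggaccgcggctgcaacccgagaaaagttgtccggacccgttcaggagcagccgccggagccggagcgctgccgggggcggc
*Edar* held a single match 233 bases before the start and the second *Tnfrsf19* start a single match 202 bases before it. The windows of *Tmem132c*, *Scrn1*, *Tmc6*, *Cntnap3*, the first *Tnfrsf19* start and *Axin2* held neither letter string. A match is a description of these letters and not a bound site. The *Tmem132c* window held 29 CpG dinucleotides and 70.3% G and C, against 14 and 58.7% for *Edar*.

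At 6 h, 7 of the 8 genes were above the filter on low counts, and 4 of them lay beyond a log2 fold change of 1, against 1.44% of all 13100 genes tested. At 12 h all 8 passed the filter and 6 lay beyond that fold, against 5.5% of 13324. Groups did not overlap for 6 members at 6 h and for all 8 at 12 h, against 36.8% and 57.1% of all genes tested. These counts follow from the choice of the genes.

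**Figure D1:**
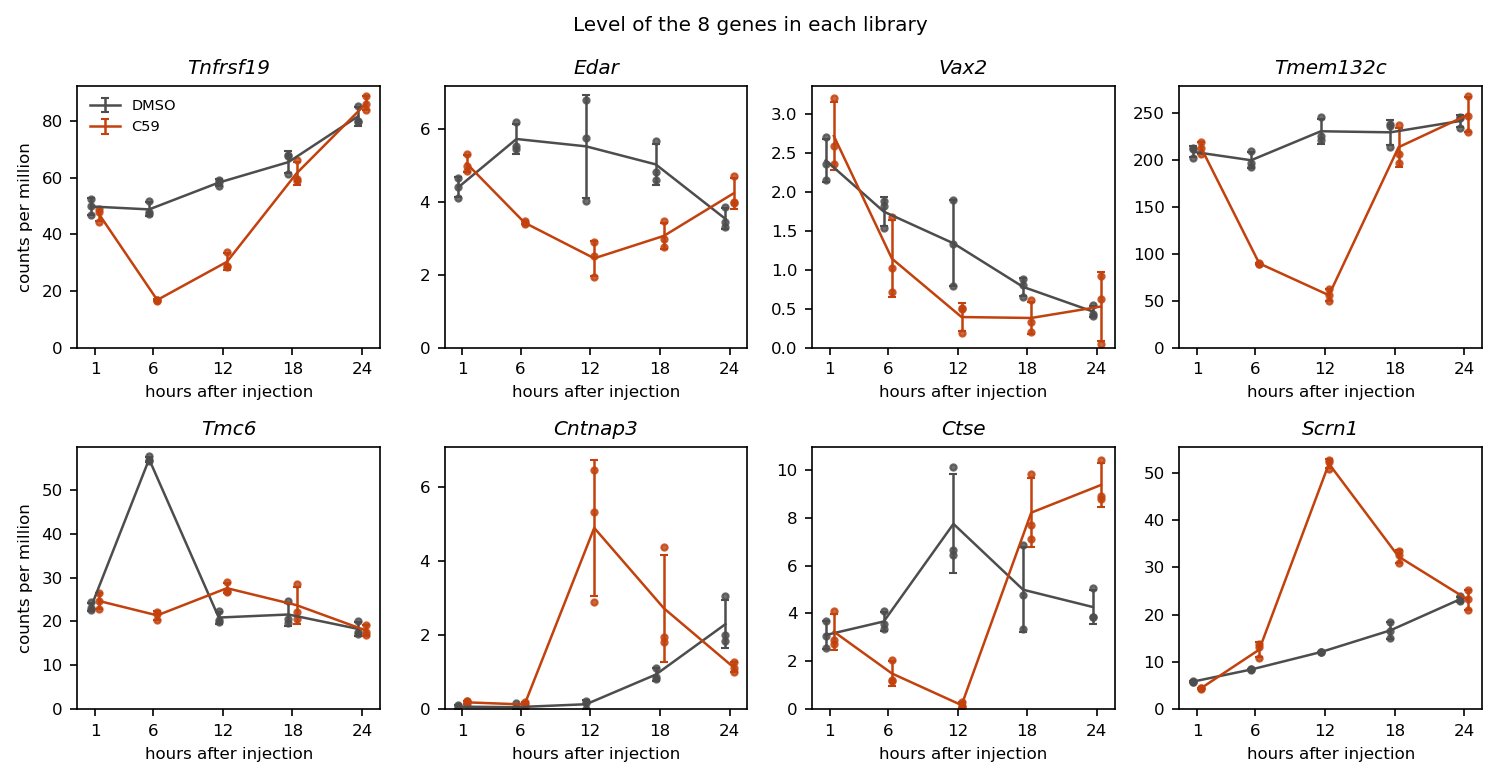
Level of each gene in CPM (vertical axes, from 0) against hours after injection, with DMSO in grey and C59 in orange. Points are single libraries, lines join the means of 3, and bars are SD. *Tmem132c* and *Tnfrsf19* dip at 6 h and 12 h in C59 and meet the control at 24 h, *Tmc6* peaks only in the DMSO libraries of 6 h, and *Ctse* crosses the control between 12 h and 18 h.

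*Tnfrsf19* (ENSMUSG00000060548, mm10 chromosome 14, 60963875 to 61046490, minus strand) encodes TROY, a TNF receptor superfamily member that signals without a classical death domain. At 6 h its level was 51.7, 47.1 and 47.8 CPM in DMSO and 16.9, 17.0 and 16.6 CPM in C59. At 12 h it was 57.0, 59.3 and 58.7 CPM in DMSO and 28.3, 28.8 and 33.8 CPM in C59. All C59 libraries lay below all DMSO libraries at both times, with a log2 difference of -1.54 ± 0.07 (SE) at 6 h and -0.94 ± 0.07 at 12 h. The lowest group of the series was C59 6 h, whereas *Tmem132c*, *Ctse* and *Edar* were lowest in C59 at 12 h.

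At 18 h *Tnfrsf19* was at 61.2, 67.9 and 67.5 CPM in DMSO and at 66.4, 59.5 and 58.9 CPM in C59. At 24 h it was at 79.8, 79.9 and 85.5 CPM in DMSO and at 86.1, 84.0 and 88.8 CPM in C59. The groups overlapped at both times, and the log2 differences of -0.07 ± 0.10 and 0.08 ± 0.06 were not called (adjusted p = 0.686 and 0.448). Within a treatment the gene was higher at 24 h than at 1 h, by 0.71 ± 0.06 on the log2 scale in DMSO (adjusted p = 6.82e-08) and 0.89 ± 0.07 in C59 (adjusted p = 6.37e-08). Both passed the adjusted p and stayed below the log2 fold of 1 that a call required.

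*Edar* (ENSMUSG00000003227, chromosome 10, 58600789 to 58675654, minus strand) encodes the ectodysplasin receptor, a death-domain receptor of the same superfamily that activates NF-κB in skin appendage placodes. In DMSO it was at 6.19, 5.52 and 5.43 CPM at 6 h, and in C59 at 3.41, 3.38 and 3.47 CPM. At 12 h the DMSO libraries held 5.74, 4.01 and 6.79 CPM and the C59 libraries 2.51, 1.93 and 2.90 CPM. Neither time showed overlap, and the log2 differences were -0.75 ± 0.16 and -1.18 ± 0.24.

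At 18 h the DMSO libraries of *Edar* held 4.60, 5.65 and 4.81 CPM and the C59 libraries 3.46, 2.75 and 2.97 CPM. The groups were apart and the log2 difference was -0.70 ± 0.18 (adjusted p = 0.0478), which passed the adjusted p but not the fold. The adjusted p was no longer below 0.05 in 5 of the 6 fits that left out 1 library, where it reached 0.182, and stayed below only without C59 18 h replicate 3. At 24 h the order was turned, with 3.29, 3.44 and 3.84 CPM in DMSO and 4.71, 3.99 and 3.97 CPM in C59. This last difference of 0.27 ± 0.17 was not called (adjusted p = 0.391), although the groups did not overlap. The C59 effect itself shifted from 18 h to 24 h by 0.96 ± 0.22 on the log2 scale (adjusted p = 0.0206), again below the fold of 1. Without 1 library this change lay between 0.86 and 1.06, was called in 5 of 12 fits, and lost its adjusted p without DMSO 18 h replicate 2, DMSO 24 h replicate 1 or DMSO 24 h replicate 2 (at most 0.0570).

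2 sets of ectodermal markers were followed beside *Edar*. The summed level of 7 apical ridge markers lay at 68.3 to 74.3 CPM in DMSO and 40.3 to 40.7 CPM in C59 at 6 h, at 57.9 to 66.0 and 31.4 to 31.9 CPM at 12 h, at 51.0 to 56.1 and 31.7 to 38.7 CPM at 18 h, and overlapped at 24 h. *Fgf8*, the main FGF of the ridge, was called lower at 6 h (log2 -1.59 ± 0.08) and 12 h (-3.17 ± 0.20), and of the set *Fgf4* was also called at 6 h. The sum of 14 surface ectoderm markers overlapped at 6 h, and at 12 h was higher in C59, at 496 to 686 CPM against 382 to 418 CPM. At 18 h it was 494 to 561 CPM against 381 to 404 CPM. None of the 14 was called at any time, beside 0.283% to 4.95% of all genes tested. At 6 h, 12 h and 18 h the *Edar* level and the ridge sum were lower in C59, and the surface ectoderm sum was not. At 24 h the surface ectoderm sum was 539 to 588 CPM in C59 against 448 to 462 CPM in DMSO, without overlap, as for *Edar*. None of the markers was at 0 in any group, and their part in the *Edar* values was not tested.

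**Figure D2:**
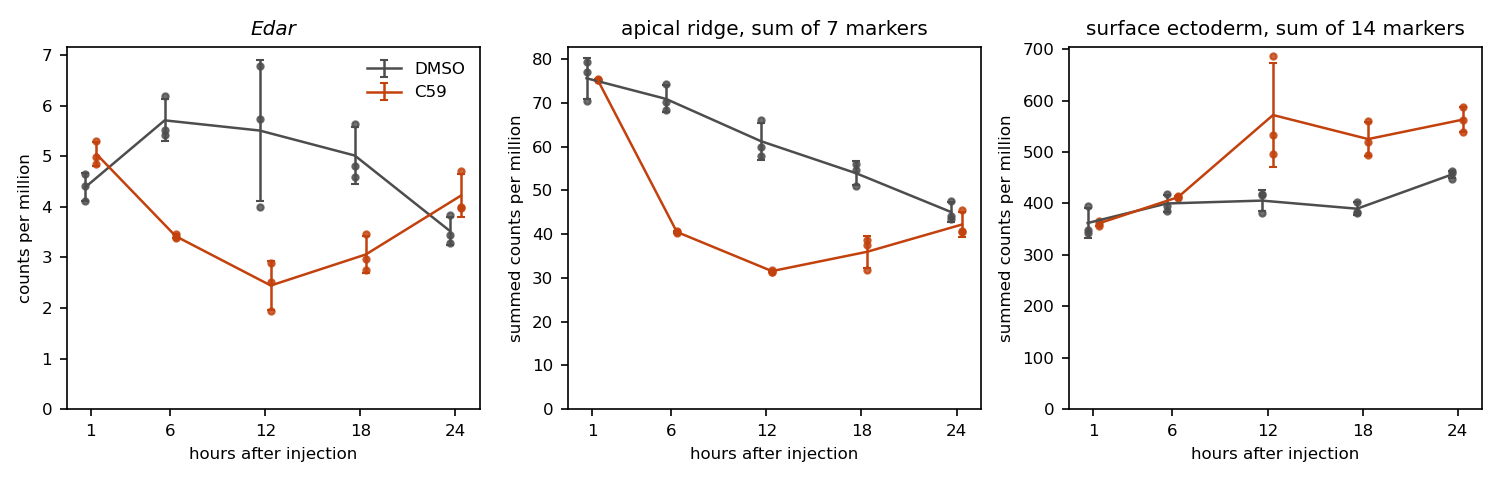
Level of *Edar* (left), of 7 apical ridge markers summed (middle) and of 14 surface ectoderm markers summed (right), in CPM from 0, against hours after injection. Points are libraries (DMSO grey, C59 orange), lines join means of 3 and bars are SD. At 12 h the C59 libraries lie below DMSO for *Edar* and the ridge sum, and above DMSO for the surface ectoderm sum.

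Of the other genes of EDAR signaling, 20 of 23 listed were in the count table and 17 were tested at 12 h. Of these edgeR called none, beside 4.95% of all genes tested. *Edaradd*, the adaptor of the receptor, held 3.09 ± 0.50 CPM (SD, n = 3) in C59 and 4.73 ± 0.45 CPM in DMSO at 6 h, a log2 difference of -0.61 ± 0.18 with adjusted p = 0.0308 that stayed below the fold. *Eda*, the ligand, is X-linked and was measured only as FPKM, fragments scaled to transcript length and library size. It was at 1.26 ± 0.05 FPKM in DMSO and 1.17 ± 0.08 FPKM in C59 at 12 h. Of 22 further TNF receptor superfamily genes, 15 were tested at 12 h and only *Relt* was called, beside the same 4.95% of all genes. *Relt* was lower in C59, at 4.70 ± 0.37 CPM against 10.02 ± 0.89 CPM (edgeR, adjusted p = 9.08e-05).

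*Vax2* (ENSMUSG00000034777, chromosome 6, 83711264 to 83738313, plus strand) encodes a homeobox transcription factor known from ventral eye patterning. Its values rest on 1 to 76 counts per library. In DMSO its level was 2.37, 2.16 and 2.7 CPM at 1 h and 0.412, 0.547 and 0.436 CPM at 24 h. The C59 libraries held 2.60, 2.36 and 3.21 CPM at 1 h and 0.917, 0.621 and 0.0484 CPM at 24 h. Neither treatment overlapped between 1 h and 24 h, and *Vax2* was lower at 24 h in both. The 24 h libraries held 8, 14 and 11 counts in DMSO and 22, 16 and 1 counts in C59. In C59 the gene passed the filter on low counts only through its 1 h libraries, where it is high. In DMSO its 24 h counts lay near the minimum of that filter. Both changes are therefore given as a description with no fold or test.

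At 12 h *Vax2* held 1.90, 1.34 and 0.792 CPM in DMSO and 0.490, 0.504 and 0.184 CPM in C59, with no overlap and a log2 difference of -1.77 ± 0.46. At 6 h the groups overlapped. At 18 h the DMSO libraries held 0.811, 0.883 and 0.648 CPM and the C59 libraries 0.608, 0.200 and 0.336 CPM, from 4 to 13 counts in C59. The groups stayed apart, but the gene passed the filter on low counts there only through its DMSO libraries, where it is high. The 18 h values are therefore given with no fold or test. *Vax1*, its close relative, was below the filter on low counts in every comparison.

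*Tmem132c* (ENSMUSG00000034324, chromosome 5, 127241808 to 127565793, plus strand) encodes a single-pass membrane protein of a family with immunoglobulin-like and cadherin-like folds whose role in the limb is little known. Per length it was the most abundant member, at 35.8 FPKM on average in DMSO at 12 h, against 11.7 FPKM for *Tnfrsf19* as the next. At 6 h its level was 197, 209 and 192 CPM in DMSO and 89.4, 89.0 and 90.3 CPM in C59. At 12 h it was 220, 245 and 225 CPM in DMSO and 55.9, 49.3 and 61.9 CPM in C59. The C59 level was 44.9% of DMSO at 6 h and 24.2% at 12 h, and the 3 C59 libraries of 6 h lay between 89.0 and 90.3 CPM.

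By 18 h the C59 libraries were at 206, 197 and 236 CPM beside 214, 236 and 237 CPM in DMSO, and the groups overlapped. The log2 difference was -0.08 ± 0.10 at 18 h and 0.05 ± 0.07 at 24 h, and neither was called (adjusted p = 0.646 and 0.730). In the order of the 10 groups, only C59 6 h and C59 12 h stood apart, and the 8 groups above them each overlapped with the next. Of the 4 other family genes, *Tmem132d* was called lower in C59 at 6 h, at 1.40 ± 0.55 CPM against 3.82 ± 1.14 CPM (log2 -1.44 ± 0.31, adjusted p = 0.00479), and at 12 h, at 0.956 ± 0.21 CPM against 2.10 ± 0.60 CPM (log2 -1.15 ± 0.31, adjusted p = 0.0118). *Tmem132d* lies within 1 Mb of *Tmem132c*, where 3 protein-coding genes were tested. At 12 h *Glt1d1*, another of these 3, was also called lower in C59 (log2 -1.12). *Tmem132b* and *Tmem132e* were not called in C59 against DMSO where they were tested. *Tmem132b* was higher at 24 h than at 1 h in both treatments, which is given as a description with no fold or test.

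*Tmc6* (ENSMUSG00000025572, chromosome 11, 117765988 to 117782198, minus strand) encodes a transmembrane channel-like protein of the endoplasmic reticulum, known in human skin disease with its neighbour *Tmc8*. At 6 h its level was 56.6, 56.9 and 57.7 CPM in DMSO and 22.1, 21.8 and 20.3 CPM in C59. The 27 libraries of the other 9 groups lay between 17.0 and 29.0 CPM, so it was the DMSO libraries of 6 h that stood apart from the series, and the C59 libraries of 6 h were among the rest. At 1 h the DMSO level was 22.5, 24.4 and 23.1 CPM and at 12 h 22.5, 19.9 and 20.4 CPM. The difference between C59 and DMSO at 6 h, -1.42 ± 0.06 on the log2 scale, came with a DMSO group of 57.1 ± 0.56 CPM (SD, n = 3) between DMSO groups of 23.3 ± 0.98 CPM at 1 h and 20.9 ± 1.37 CPM at 12 h.

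At 12 h the order was opposite, with 29.0, 27.0 and 26.8 CPM in C59 above all DMSO libraries and a log2 difference of 0.40 ± 0.08. At 1 h, 18 h and 24 h the groups overlapped and no difference was called (adjusted p = 0.634, 0.564 and 0.908). The level per length showed the same single high group, at 12.4, 11.2 and 11.8 FPKM in DMSO at 6 h against 5.17, 5.25 and 5.08 FPKM in C59.

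Of 27 other protein-coding genes tested within 1 Mb of *Tmc6* at 6 h, the lowest log2 difference was -0.61, for *C1qtnf1*. None of the 27 was called, beside 1.17% of all genes tested. *Tmc8*, which overlaps *Tmc6* on the opposite strand by 40 exonic bases, held 0.849 CPM on average in DMSO and 1.52 CPM in C59 at 6 h. The DMSO libraries of 6 h also differed in sex chromosome content, since 4 Y-linked genes summed to 0 FPKM in all 3, against 19.8 to 33.2 FPKM in C59. Among the 9 other libraries with a Y-linked sum below 1, *Tmc6* lay between 20.2 and 27.0 CPM, and among the 18 libraries with a higher sum between 17.0 and 29.0 CPM. The part of embryo sex in the *Tmc6* value was not tested. At 6 h the Y-linked sum and the treatment cannot be told apart, which holds for the 6 h values of all 8 genes. At 1 h this sum was apart as well, at 0.0469 to 9.03 FPKM in DMSO against 21.2 to 38.2 FPKM in C59. The same limit therefore holds for the 1 h values and their tests.

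*Cntnap3* (ENSMUSG00000033063, chromosome 13, 64736182 to 64903955, minus strand) encodes a contactin-associated protein, a cell adhesion protein known from neurons. It held 0 to 4 counts per library at 1 h and 6 h and 0, 3 and 4 counts in DMSO at 12 h. In C59 at 12 h it held 53, 127 and 141 counts, or 2.89, 5.34 and 6.48 CPM. The log2 difference at 12 h was 5.22 ± 0.55, from a control group of 7 counts in all, so its size is poorly fixed by the counting.

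At 18 h *Cntnap3* was at 0.811, 1.12 and 0.864 CPM in DMSO and 1.96, 4.40 and 1.82 CPM in C59, and it was called higher in C59 (log2 1.52 ± 0.38, adjusted p = 0.0471). It was the only call among the 8 members at 18 h, where 1.29% of 13413 genes were called. At 24 h it was at 1.85, 1.99 and 3.05 CPM in DMSO and 1.00, 1.28 and 1.11 CPM in C59, and it was called lower (log2 -1.02 ± 0.27, adjusted p = 0.0426). The change of the C59 effect between these times, -2.54 ± 0.49 on the log2 scale, was called as well (adjusted p = 0.00812), as for 1.27% of all genes. Both single-time calls were near the threshold. The 18 h call was lost without DMSO replicate 1, 2 or 3 or C59 replicate 2, with log2 values of 1.43, 1.71, 1.47 and 1.00, and the 24 h call was lost without any 1 of the 6 libraries (log2 -1.14 to -0.75). The call of the change itself stayed in each of these fits, with log2 values from -2.76 to -2.03.

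In DMSO *Cntnap3* held 2, 0 and 3 counts at 1 h and 36, 51 and 77 counts at 24 h, and in C59 3, 4 and 4 counts and 24, 33 and 23. Neither treatment overlapped between these times. The gene passed the filter in these comparisons only through its 24 h libraries, where it is high, so they are given as a description with no fold or test. Its C59 level at 12 h was above its DMSO level at 18 h in every library. Of 6 other genes of the family, 2 or 3 passed the filter at each time. None of these was called in C59 against DMSO, beside 0.283% to 4.95% of all genes tested.

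*Ctse* (ENSMUSG00000004552, chromosome 1, 131638306 to 131675505, plus strand) encodes cathepsin E, an intracellular aspartic protease known from immune and gastric cells. At 6 h it was at 4.11, 3.33 and 3.54 CPM in DMSO and 2.07, 1.18 and 1.22 CPM in C59, a log2 difference of -1.30 ± 0.25. At 12 h the DMSO libraries held 133, 116 and 179 counts and the C59 libraries 2, 7 and 2 counts, or 6.64, 6.46 and 10.1 CPM against 0.109, 0.294 and 0.0920 CPM. The C59 level was 2.13% of DMSO, and the log2 difference of -5.44 ± 0.37 was -6.17 without C59 12 h replicate 2.

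The later libraries went the other way. At 18 h *Ctse* was at 4.76, 3.34 and 6.86 CPM in DMSO and at 7.11, 7.69 and 9.83 CPM in C59, with no overlap but no call (log2 0.77 ± 0.26, adjusted p = 0.111). At 24 h it was at 3.86, 3.87 and 5.07 CPM in DMSO and at 8.92, 8.77 and 10.4 CPM in C59, and the log2 difference of 1.13 ± 0.15 was called (adjusted p = 0.00111). *Ctse* and *Cntnap3* were the 2 members called at 24 h, among 0.819% of 13675 genes, and the call of *Ctse* stayed without any 1 library (log2 1.06 to 1.28).

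Within C59, *Ctse* rose from 1 h to 24 h by 1.55 ± 0.17 on the log2 scale (adjusted p = 3.91e-06), while the rise in DMSO of 0.46 ± 0.19 was not called (adjusted p = 0.0514). A test of the difference between these changes was not made. The DMSO level was highest at 12 h, at 7.74 ± 2.07 CPM (SD, n = 3), and C59 24 h, C59 18 h and DMSO 12 h overlapped with their neighbours in that order. Macrophage markers, a cell type that holds this protease in other tissues, were also higher in C59 from 12 h on, with a summed level of 6 markers of 38.3 to 39.3 CPM against 22.4 to 24.3 CPM at 12 h and 45.3 to 51.8 CPM against 33.6 to 40.2 CPM at 24 h. At 12 h the macrophage sum and *Ctse* thus differed in opposite directions. Their part in the 24 h value was not tested, and none of the 6 markers was at 0 in any group.

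Of 5 further aspartic proteases, 3 were tested at 12 h and *Bace2* was called, higher in C59 at 1.86 ± 0.38 CPM against 0.853 ± 0.30 CPM (adjusted p = 0.0190). The gene next to *Ctse*, *Rab7b*, which encodes a small GTPase of late endosomes, held 0.839 ± 0.24 CPM in C59 and 0.179 ± 0.02 CPM in DMSO at 12 h. *Rab7b* passed the filter there only through its C59 libraries, so its values are given with no fold or test. Neighbouring genes on the same strand stood in opposite order at 12 h, from a low *Rab7b* level. At 18 h *Rab7b* was higher in C59 without a call (log2 1.03), the same direction as *Ctse*.

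*Scrn1* (ENSMUSG00000019124, chromosome 6, 54501173 to 54566489, minus strand) encodes secernin-1, a cytosolic protein first described for its effect on exocytosis. At 12 h its level was 12.0, 12.1 and 12.1 CPM in DMSO and 50.8, 52.6 and 52.3 CPM in C59, or 431% of DMSO. At 6 h it was 8.22, 8.44 and 8.44 CPM in DMSO and 13.7, 13.2 and 10.8 CPM in C59. The log2 difference was 0.58 ± 0.12 at 6 h and 2.11 ± 0.06 at 12 h, and C59 12 h was the highest group of the series, apart from all others.

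At 18 h *Scrn1* was still higher in C59, at 30.8, 32.5 and 33.4 CPM against 18.5, 16.5 and 14.97 CPM. The log2 difference of 0.97 ± 0.11 had an adjusted p of 0.00258 and fell just short of the fold of 1, which it passed with upper-quartile factors or without DMSO 18 h replicate 1 or C59 18 h replicate 1. At 24 h the levels met, at 23.8, 23.1 and 22.8 CPM in DMSO and 23.2, 20.9 and 25.1 CPM in C59. The C59 effect changed from 18 h to 24 h by -0.98 ± 0.14 (adjusted p = 0.00123), also just short of that fold, which it passed in 3 of 12 fits without 1 library (log2 -1.06 to -0.91 over all 12).

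At 1 h the C59 libraries of *Scrn1* lay below those of DMSO, at 4.53, 4.31 and 4.47 CPM against 5.63, 5.98 and 5.83 CPM. This difference of -0.39 ± 0.14 did not pass the test (adjusted p = 0.166), and no member was called at 1 h by edgeR or by DESeq2, where edgeR called 0.283% of 13076 genes. *Scrn1* was the single member at 1 h with an unadjusted p below 0.05 (0.0146). In DMSO *Scrn1* rose from 1 h to 24 h by 2.0 ± 0.09 on the log2 scale (adjusted p = 2.19e-10), and in C59 by 2.39 ± 0.12 (adjusted p = 6.30e-10). In DMSO its level was higher at each time than at the one before it, with no overlap between successive groups.

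*Wipf3*, which encodes a WASP-interacting protein, overlaps *Scrn1* on the opposite strand by 242 exonic bases. It was called higher in C59 at 18 h, at 5.88 ± 0.84 CPM against 2.63 ± 0.38 CPM (log2 1.19 ± 0.19, adjusted p = 0.00964), and at 12 h its log2 difference of 0.70 ± 0.21 passed the adjusted p (0.0190) but not the fold. The strand used for the read counts was not stated, and the FPKM values were computed as unstranded, so reads in the shared bases cannot be assigned to one of these genes, and the mean *Wipf3* level was at most 5.88 CPM in any group. The other secernins, *Scrn2* and *Scrn3*, were not called in C59 against DMSO at any time.

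Markers of cartilage condensations were higher at the same time as *Scrn1* and *Cntnap3*. Of 5 such markers, *Sox9*, *Sox5*, *Sox6* and *Col2a1* were called higher in C59 at 12 h. The sum of the 5 was 1650 to 2351 CPM against 867 to 928 CPM at 12 h, 1469 to 1794 CPM against 966 to 1103 CPM at 18 h, and 1367 to 1538 CPM against 1150 to 1295 CPM at 24 h. The sum of 5 neuron markers was 32.6 to 39.3 CPM in C59 against 23.1 to 29.5 CPM in DMSO at 12 h, 23.4 to 26.8 against 28.0 to 32.7 CPM at 18 h, and 21.0 to 27.2 against 34.3 to 37.1 CPM at 24 h. At 12 h *Stmn2* of these was called higher and *Isl1* lower. None of these markers was at 0 in any group, and the part of both lists in the *Scrn1* and *Cntnap3* values was not tested.

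Markers of the limb mesenchyme were lower at the same time as *Tmem132c*, *Tnfrsf19* and *Ctse*. The sum of *Prrx1*, *Prrx2*, *Twist1* and *Msx1* was 931 to 1027 CPM in C59 against 1538 to 1571 CPM in DMSO at 6 h, and 813 to 827 CPM against 1390 to 1483 CPM at 12 h. *Msx1* was called lower at 18 h too, at 29.9 ± 3.84 CPM against 112 ± 7.06 CPM, when *Tmem132c* and *Tnfrsf19* were not called. None was at 0, and their part in the values of the 3 genes was not tested.

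**Figure D3:**
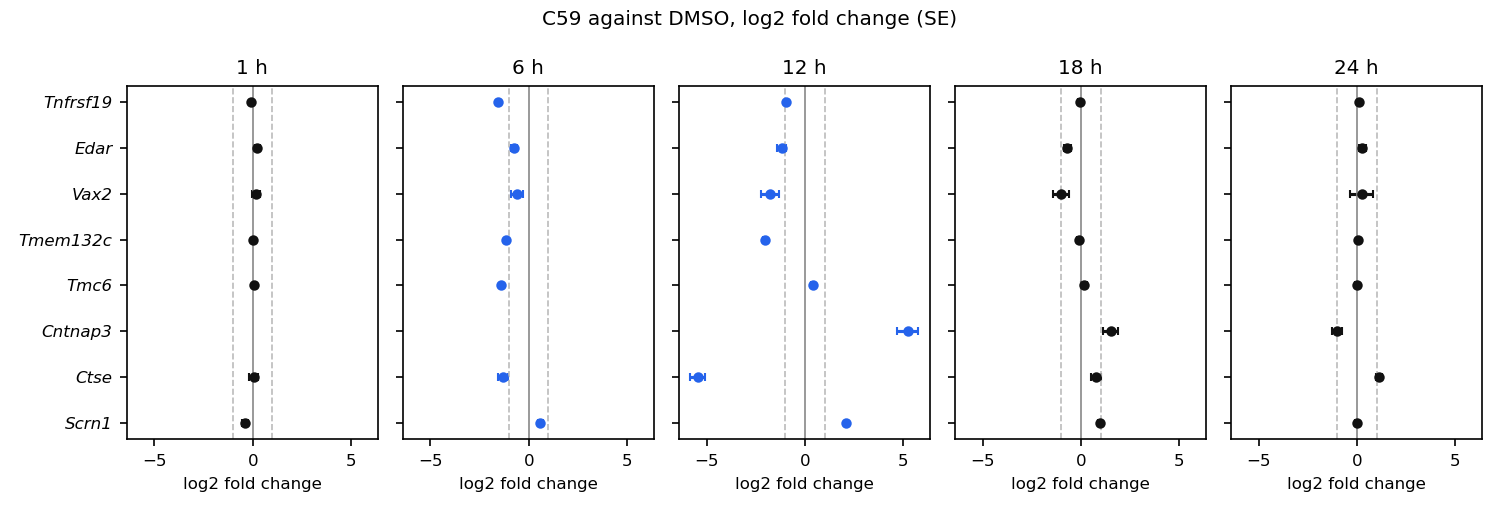
Log2 fold change of C59 against DMSO (horizontal axis) for the 8 genes at each time, with SE as bars and dashed lines at a log2 fold change of 1 and -1. Times used to pick the genes are in blue and carry no test, and *Cntnap3* is not drawn at 1 h and 6 h, where it was below the filter. The 18 h value of *Vax2* is drawn but not read, since the gene passed the filter there only through its DMSO libraries. The widest values are -5.44 for *Ctse* and 5.22 for *Cntnap3*, both at 12 h.

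Across the comparisons that were tested, 1 of the 8 members was called at 18 h and 2 at 24 h. In development *Scrn1* was called higher at 24 h than at 1 h in DMSO, where 12.0% of 13580 genes were called. *Scrn1* and *Ctse* were called higher at 24 h in C59, where 13.6% of 13510 genes were called. *Cntnap3* and *Vax2* are not counted in development, for the reasons given with their values. The median log2 difference of the members was 0.04 at 18 h and 0.07 at 24 h, beside a median over all genes tested of 0.00 at both times. The count and median at 18 h still hold *Vax2*, which is not read as tested there. Development within a treatment shares its 1 h and 24 h libraries with the comparisons of C59 and DMSO at those times.

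The relatives and signaling partners of the 8 genes made up 72 listed genes, of which 50 were tested at 12 h. At 12 h *Bace2* was higher and *Tmem132d*, *Relt* and *Tmc3* were lower in C59, or 8% of those tested beside 4.95% of all genes. At 6 h *Tmem132d* was the single call among 46, or 2.17% beside 1.17%. edgeR called none of the 49 tested at 1 h, 50 at 18 h and 51 at 24 h, with 10, 10 and 7 genes at an unadjusted p below 0.05.

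Each gene was set beside the 12542 genes with a mean of at least 1 CPM by Pearson's r of log2 CPM over the 30 libraries. These libraries share treatment and time, so r describes likeness of pattern and carries no test. The 3 first genes depended on the measure. By Spearman's rho, 0 to 2 of the 3 were the same for a member, and by Pearson's r over the 10 group means also 0 to 2. For *Tmem132c* the 3 most alike genes were *Nkd2* (r = 0.973), *Nkd1* (0.963) and *Apcdd1* (0.949). By Spearman's rho none of these was among the first 3, which were *Ube2ql1* (0.871), *Chst2* (0.869) and *Scara3* (0.867), and over group means *Nkd2* was again first (0.978). By Pearson's r over libraries the first 3 for *Tnfrsf19* were *Apcdd1* (0.923), *Dkk2* (0.916) and *Pdgfc* (0.904). For *Scrn1* they were *Cacna1h* (0.983), *Kank1* (0.981) and *Mxd4* (0.971), and for *Cntnap3* *Samd12* (0.927), *Sulf1* (0.919) and *Capn1* (0.917).

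*Ctse* was most like *Tmem132c* (r = 0.901), followed by *Ak5* (0.898) and *Camkk2* (0.894). By Spearman's rho *Ccnd1* was first (0.916) and *Tmem132c* was not among the first 3, and over group means *Ak5* was first (0.978). For *Edar* the most alike were *Srpk1* (0.871), *Utp18* (0.864) and *Ednra* (0.861), and for *Vax2* *Zkscan17* (0.895), *Hmga1* (0.894) and *Drosha* (0.893). For *Tmc6* the first was *Polb* at r = 0.696, by Spearman's rho *Col18a1* at 0.798, and over group means *AW209491* at 0.855. Among the members themselves, r was 0.859 for *Scrn1* and *Cntnap3*, 0.814 for *Tmem132c* and *Tnfrsf19*, and -0.854 for *Scrn1* and *Vax2*.

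**Figure D4:**
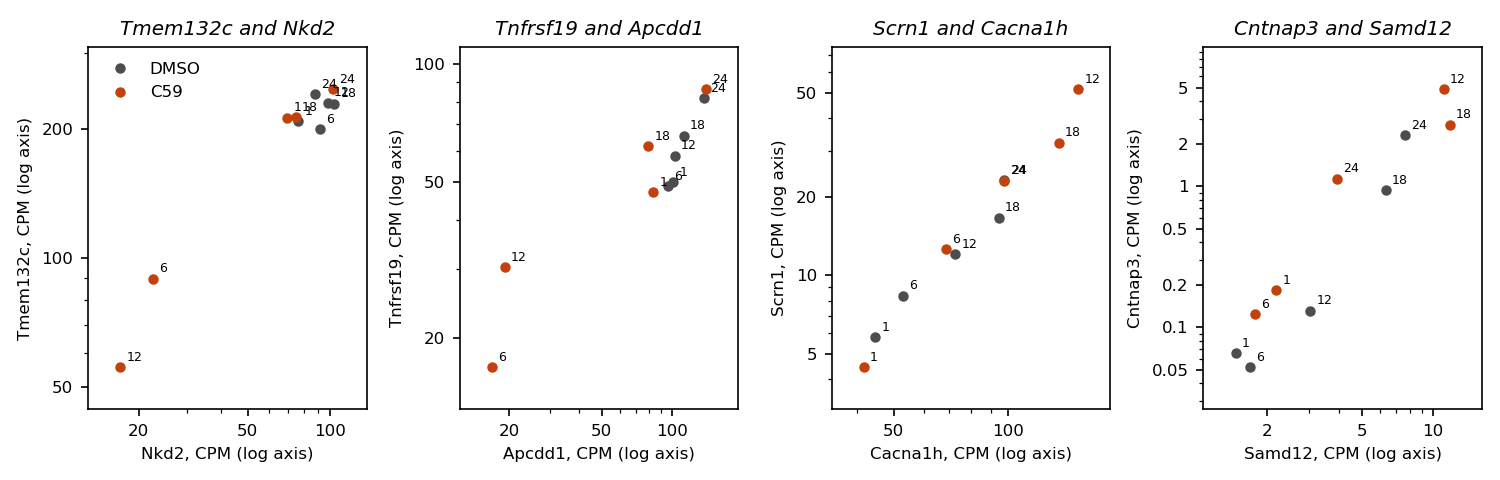
Mean level of a member (vertical, CPM, log axis) against that of its most alike gene (horizontal, CPM, log axis) in the 10 groups, with DMSO in grey, C59 in orange and the hours after injection beside each point. For *Tmem132c* with *Nkd2* and *Tnfrsf19* with *Apcdd1*, C59 at 6 h and 12 h lies apart at the lower left, and for *Scrn1* with *Cacna1h* C59 at 12 h lies at the upper right.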

How the data were processed

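PolyA RNA of 30 forelimb bud libraries, 10 groups of 3, was sequenced. The authors trimmed reads with Cutadapt 1.16, aligned them to mm10 with STAR 2.7.0e and deposited unnormalised read counts per gene and FPKM values from Cufflinks 2.2.1, the latter computed as unstranded. The strand setting of the read counts is not given in the sources used here. Genes on chromosomes X, Y and M appear only in the FPKM table. Groups came from the labels, and embryos came from several litters, so p-values measure the spread between these libraries.

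Counts were tested with edgeR 4.0.16 (quasi-likelihood, TMM, R 4.3.3), per comparison, on genes passing filterByExpr (minimum count 10, minimum total 15), with Benjamini-Hochberg adjustment over all genes tested. A gene was called where the adjusted p was under 0.05 and the fold exceeded 1 on the log2 scale. Likeness used log2 CPM with a prior count of 2. DESeq2 1.42.0 and limma 3.58.1 were alternatives. The tests were checked on simulated data. These left out genes of low count, used a single spread for all genes, and held larger changes than the member calls at 18 h and 24 h. The check therefore does not cover small changes or genes of low count. Counts of 50628 genes matched GENCODE names, and the 205 others held 0.00676% of counts. Named genes were the 8 members, their listed relatives, neighbours and markers that passed, and the 3 most alike genes. The members and lists were chosen with earlier results of these data known. Replicate numbers were not treated as pairs. Correlations of deviations between libraries of the same number lay between -0.248 and 0.149, and at 12 h between 0.0265 and 0.149. With 3 libraries a group these values cannot exclude a shared litter or batch. The result of 1 marker list is not reported here.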

Additional observations from a re-analysis of the deposited data

Results flagged for a closer look

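The effect of C59 on *Scrn1* changed from 18 h to 24 h by -0.98 on the log2 scale, that on *Cntnap3* by -2.54 and that on *Edar* by 0.96, each with an adjusted p below 0.05 by a test of the change itself.

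For the following genes every C59 library lay on one side of every DMSO library at some times and on the other side at others, and, apart from the changes from 18 h to 24 h given above, the difference between times was not tested. For *Scrn1* the log2 difference was -0.39 at 1 h, against 0.58, 2.11 and 0.97 at 6 h, 12 h and 18 h. For *Tmc6* it was -1.42 at 6 h and 0.40 at 12 h. For *Ctse* it was -1.30 and -5.44 at 6 h and 12 h, against 0.77 and 1.13 at 18 h and 24 h. For *Cntnap3* it was 5.22 and 1.52 at 12 h and 18 h, against -1.02 at 24 h. For *Edar* it was 0.20 at 1 h and 0.27 at 24 h, against -0.75, -1.18 and -0.70 at 6 h, 12 h and 18 h. Groups without overlap were common, at 36.8% of all genes tested at 6 h and 57.1% at 12 h. The shares at 1 h, 18 h and 24 h are not given, so the orders at those times are a description and are not read as a result. By edgeR, *Scrn1* and *Edar* at 1 h (adjusted p = 0.166 and 0.535), *Ctse* at 18 h (0.111) and *Edar* at 24 h (0.391) were not called.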

How the results depend on the processing

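No called difference of a member reversed under any alternative tried, and DESeq2 changed no call. At 18 h, where 1 member was called, upper-quartile factors gave 2, no minimum fold gave 3, and the fit over all genes of the table and limma on log2(FPKM + 1) or log2(FPKM + 0.1) gave 0. At 24 h, where 2 were called, the fit over all genes, all 30 libraries in one fit and limma with 0.1 each gave 1, and limma with 1 gave 0. For the change from 18 h to 24 h, 1 call became 2 with upper-quartile factors, 3 with no minimum fold and 0 with limma and 1. The counts for development here still hold *Cntnap3* and *Vax2*, which are not read as calls above. With them, 3 calls in DMSO became 6 with no minimum fold and 1 with limma and 1, and 4 calls in C59 became 7 and 2. Of 10 member values beyond the fold at 6 h and 12 h, limma with 1 left 6. The 5 calls among relatives became 29 with no minimum fold, 3 with limma and 0.1, and 0 with limma and 1. Leaving out 1 library gave 0 to 2 calls at 18 h, 1 at 24 h and 1 to 3 for the change. It gave 3 and 4 in development with *Cntnap3* and *Vax2* counted, 10 to 11 values beyond the fold, and 4 to 6 calls among relatives. Fitting the replicate number as a block left 1 call at 24 h (*Ctse*) and changed no other member call. The causes were not tested. Adding 1 to FPKM understates changes of low genes, which by its construction touches *Cntnap3*, *Vax2*, *Edar* and *Ctse*. With 3 libraries a group, and 0 to 76 counts a library for *Vax2* and early *Cntnap3*, depth limits their values.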
